A study of Homo sapiens with 10 samples.

Results

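Expression of 10 genes of polyamine metabolism was followed between 2 human bladder cancer cell lines, T24 and its cisplatin-resistant derivative T24R2, in bulk RNA-seq. They were SAT1, ODC1, AMD1, SRM, SMS, SMOX, PAOX, OAZ1, OAZ2 and AZIN1, and all 10 were found by symbol among the 61533 genes counted. The genes were listed with the T24R2 and T24 levels of these same libraries already known, so their differences between the lines are a description with no p-value, and tests are reported only for other genes. Each line was sequenced in 5 libraries labelled day 3, from cells grown in RPMI with fetal bovine serum and antibiotics. T24R2 was derived from T24 by serial exposure to cisplatin and came from another laboratory, and whether it is 1 clone is not given in the sources used here. The methods of the study keep T24R2 in cisplatin, while the labels describe drug-free medium for both lines, so line and drug exposure cannot be told apart. The labels do not say whether replicates were separate cultures, so a p-value measures only the spread between these libraries.

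Polyamines are small positively charged molecules that bind nucleic acids and are needed for growth and translation. Ornithine decarboxylase (ODC1) makes putrescine, and spermidine synthase (SRM) and spermine synthase (SMS) extend it with aminopropyl groups that AMD1 provides from S-adenosylmethionine. Antizymes (OAZ1 and OAZ2) send ODC1 to the proteasome, and the antizyme inhibitor AZIN1, an inactive relative of ODC1, holds antizymes away from it. In the other direction, SAT1 acetylates spermidine and spermine, PAOX oxidizes the acetylated forms, and SMOX oxidizes spermine directly with release of hydrogen peroxide. SAT1 is also linked to lipid peroxidation and ferroptosis, an iron-dependent form of cell death.

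Total counts were 9257843 to 10840954 fragments per library. Levels are CPM, counts relative to library sizes scaled by the TMM method of edgeR, and means carry the SD of the 5 libraries of a line. A gene was called when the adjusted p of edgeR's quasi-likelihood test was under 0.05 and the absolute log2 fold change over 0.5. Of 16181 genes tested, 51.4% were called, 24.9% higher and 26.5% lower in T24R2, and without scaling the split was 5206 higher and 3431 lower. Of 16 urothelial and epithelial markers, 9 were above 3 counts in every T24 library and 5 in every T24R2 library, led by KRT7, KRT8 and KRT18, and their summed level was 4944 to 5676 CPM in T24 and 3013 to 3218 in T24R2. CDH1 and KRT20 did not pass 3 counts in every library of either line and GATA3 was lower in T24R2 (22.1 against 0.214 CPM). Among 3 leukocyte markers the summed level stayed at or under 1.79 CPM, whereas the endothelial marker CDH5 stood at 239 CPM in T24 and 0.559 in T24R2. The other endothelial markers were low, PECAM1 at 5.36 CPM in T24 and 1.17 in T24R2, and VWF at 0.449 and 0.133. The part of these marker differences in the results was not tested.

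The 3 genes of polyamine breakdown were all lower in T24R2, the 4 genes of synthesis were divided, and the antizymes differed little while AZIN1 was higher. The call rule, applied to the 10 genes as a label of size and not as a test, takes in SAT1, SMOX, PAOX and SMS as lower and SRM and AZIN1 as higher, 6 of 10 beside 51.4% of all tested genes. The median log2 fold change of the 10 was -0.23, and that of all tested genes 0.01. For 9 of the 10 genes the libraries of the lines did not overlap, AMD1 being the exception, and the same held for 61.2% of all tested genes. Nothing is read from these counts, since the genes were chosen on the same contrast. Lower RNA per cell and fewer expressing cells cannot be told apart in bulk libraries.

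**Figure D1:**
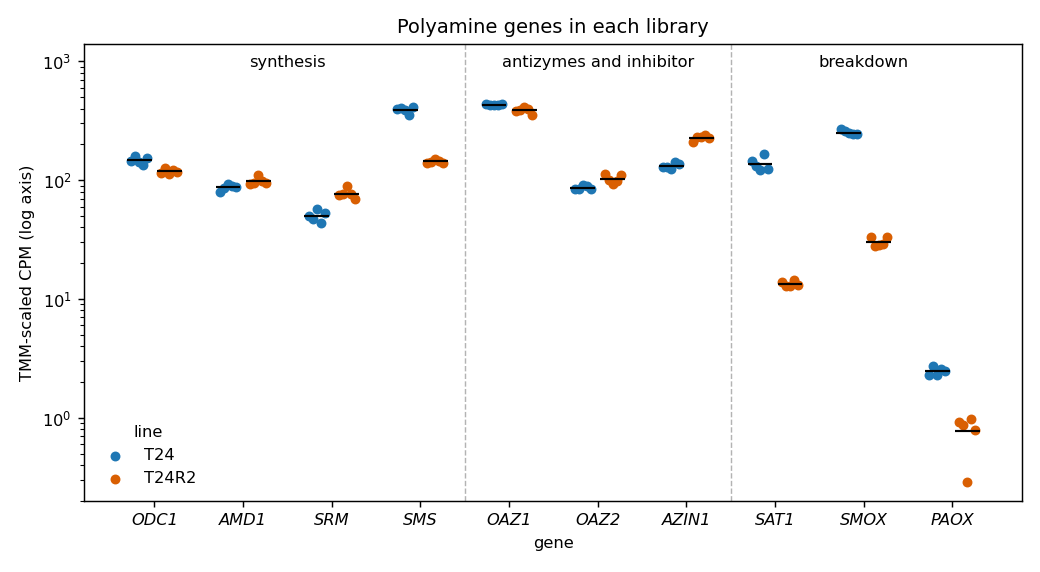
TMM-scaled CPM (log axis) of the 10 polyamine genes in each of 5 T24 and 5 T24R2 libraries, grouped by role, with each point a library and each bar the mean of a line. SAT1 lies at 123 CPM or more in every T24 library and at 14.5 or less in every T24R2 library, SMOX at 242 or more and at 33.2 or less, whereas AZIN1 and SRM sit higher in T24R2.

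Upstream sequences are shown for SAT1 and SMS, the X-linked members that were lower, and for SRM, a synthesis gene that was higher. Each is the window of 250 bases before the RefSeq start in GRCh38.p14, written 5′ to 3′ on the gene's strand, with matches to any of 4 searched motifs in capitals. The windows are chrX:23782923-23783172 (plus strand) for SAT1, chrX:21940459-21940708 (plus strand) for SMS and chr1:11060019-11060268 (minus strand) for SRM.
SAT1: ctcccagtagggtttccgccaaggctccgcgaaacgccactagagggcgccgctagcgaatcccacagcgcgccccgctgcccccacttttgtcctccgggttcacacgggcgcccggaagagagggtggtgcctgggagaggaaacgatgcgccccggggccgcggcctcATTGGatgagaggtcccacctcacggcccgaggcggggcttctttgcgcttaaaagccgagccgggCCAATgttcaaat
SMS: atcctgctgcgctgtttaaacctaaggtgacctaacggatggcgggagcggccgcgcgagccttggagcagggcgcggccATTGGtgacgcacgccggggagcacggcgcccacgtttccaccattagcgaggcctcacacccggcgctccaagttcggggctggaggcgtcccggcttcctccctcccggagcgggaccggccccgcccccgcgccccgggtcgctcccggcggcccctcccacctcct
SRM: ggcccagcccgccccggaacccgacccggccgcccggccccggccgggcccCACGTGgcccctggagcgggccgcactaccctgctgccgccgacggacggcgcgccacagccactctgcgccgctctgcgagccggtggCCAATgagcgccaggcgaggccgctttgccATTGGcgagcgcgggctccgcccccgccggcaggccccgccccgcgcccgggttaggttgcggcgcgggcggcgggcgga
The motifs were the E-box CACGTG, bound by MYC and MAX, the core TGACNNNGC of the antioxidant response element, the TATA box TATAAA and the CCAAT box CCAAT, each on both strands. Over all 27305 genes with such a window, 7.73% hold the E-box, 13.2% the antioxidant core, 13.0% the TATA box and 37.0% the CCAAT box. SAT1 has CCAAT boxes whose first bases lie 79 and 13 bases before the start, SMS has one at 170, and SRM has them at 110 and 80. The E-box of SRM begins 199 bases before its start, and 1 of the 2 windows of ODC1 also holds an E-box. None of the windows of the 7 genes searched (SAT1, ODC1, AMD1, SRM, SMS, OAZ1 and OAZ2) matches the antioxidant core or the TATA box as spelled here. SMOX, PAOX and AZIN1 had no window used here.

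SAT1 (ENSG00000130066.17, plus strand of chromosome X of hg38, 23783173 to 23786210) showed the largest difference of the 10 genes. Its CPM in T24 replicates 1 to 5 were 144, 132, 123, 166 and 123, and in T24R2 replicates 1 to 5 they were 13.9, 12.8, 12.9, 14.5 and 13.1. Every T24R2 library was thus far under every T24 library, and the T24R2 libraries were also closer together, with a coefficient of variation of 5.50% against 13.3% in T24. The mean went from 138 ± 18.3 to 13.4 ± 0.739 CPM, that is to 9.76% of the T24 level. The log2 fold change was -3.36 (standard error 0.08), and 3.24% of all tested genes had a lower one. These levels rest on 1074 to 1548 fragments in the T24 libraries and 133 to 163 in those of T24R2. No exon of SAT1 is shared with a gene on the opposite strand. On the same strand, ENSG00000288706 shares 3.63% of the exon bases of SAT1 and had 0 counts in every library.

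SMOX (ENSG00000088826.18, chromosome 20, 4120980 to 4187747), the spermine oxidase, was nearly as much lower. T24 replicates 1 to 5 had 269, 257, 248, 243 and 242 CPM, and T24R2 replicates 1 to 5 had 33.2, 27.7, 28.2, 29.2 and 32.9. The ranges are widely separated, and T24R2 stood at 12.0% of T24, with a log2 fold change of -3.06 (standard error 0.06). PAOX (ENSG00000148832.16, chromosome 10, 133379261 to 133391694), the peroxisomal oxidase of acetylated polyamines, was scarce in both lines, T24 libraries holding 20 to 26 counts and T24R2 libraries 3 to 11. Its level was 2.47 ± 0.195 CPM in T24 and 0.768 ± 0.277 in T24R2, a log2 fold change of -1.66 (standard error 0.31). A gene on the same strand, ENSG00000254536, shares 61.0% of the exon bases of PAOX, so its level is uncertain.

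Among the synthesis genes, SMS (ENSG00000102172.16, chromosome X, 21940709 to 21994837) was the most abundant and the one that was clearly lower. T24 replicates 1 to 5 had 400.1, 406, 388, 354 and 412 CPM, and T24R2 replicates 1 to 5 had 140.1, 142, 150.4, 145 and 140.0. The T24R2 libraries lay within a narrow band at 36.6% of the T24 mean, with a log2 fold change of -1.45 (standard error 0.05). SRM (ENSG00000116649.10, chromosome 1, 11054584 to 11060020), which acts one step earlier, went the other way. T24 replicates 1 to 5 had 49.7, 47.6, 57.1, 43.8 and 52.9 CPM of SRM, and T24R2 replicates 1 to 5 had 75.1, 75.9, 88.5, 75.7 and 69.9. All T24R2 libraries were above all T24 libraries, at 153% of the T24 mean (log2 fold change 0.62, standard error 0.07).

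ODC1 (ENSG00000115758.13, chromosome 2, 10439968 to 10448327) and AMD1 (ENSG00000123505.19, chromosome 6, 110874770 to 110898879), the decarboxylases of the pathway, differed less. ODC1 ranged from 135 to 159 CPM in T24 and from 113 to 127 in T24R2, without overlap, a log2 fold change of -0.31 (standard error 0.05). AMD1 ranged from 79.2 to 93.0 CPM in T24 and from 92.9 to 110.0 in T24R2, so that the highest T24 library slightly exceeded the lowest T24R2 library. The log2 fold change of AMD1 was 0.17 (standard error 0.06). Without scaling beyond the library total the log2 fold changes were -0.14 for ODC1 and 0.33 for AMD1. The size of both differences, and the separation of the ODC1 ranges, thus rest on the scaled levels. Neither of these genes reached the fold change minimum.

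The regulators of ODC1 protein were led by AZIN1 (ENSG00000155096.15, chromosome 8, 102826111 to 102893864). It had 129, 130.2, 125, 143 and 135 CPM in T24 replicates 1 to 5 and 208, 233, 233, 239 and 226 in T24R2 replicates 1 to 5. The lines did not overlap, and T24R2 stood at 172% of T24 (log2 fold change 0.78, standard error 0.05). OAZ1 (ENSG00000104904.12, chromosome 19, 2269509 to 2273490) ranged from 425 to 440.3 CPM in T24 and from 355 to 412 in T24R2, a log2 fold change of -0.16 (standard error 0.04). Without scaling beyond the library total that of OAZ1 became 0.00, so its direction rests on the scaling. OAZ2 (ENSG00000180304.14, chromosome 15, 64687573 to 64703281) ranged from 83.9 to 91.2 CPM in T24 and from 93.4 to 113 in T24R2, a log2 fold change of 0.25 (standard error 0.05). Genes on the opposite strand overlap 6.87% of the exon bases of OAZ1 and 7.22% of those of OAZ2. With the counts of JSRP1, the opposite-strand gene overlapping OAZ1, taken off, the log2 ratio of OAZ1 went from -0.16 to -0.19. JSRP1 had up to 1985 counts in a library, and whether these are fragments of OAZ1 was not tested. On the same strand, ENSG00000273734 shares 6.40% of the exon bases of OAZ1 and had 0 counts in every library.

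Levels were compared between genes per kilobase of exon. In T24, SMS was the highest of the 10 at 193 CPM per kilobase, followed by OAZ1 at 126, SMOX at 85.5, SAT1 at 55.5 and ODC1 at 52.7. SAT1 and ODC1 did not differ beyond their spread in T24 (SD 7.37 and 3.34 CPM per kilobase). In T24R2 the order was OAZ1 at 112, SMS at 70.9, ODC1 at 42.5, SRM at 40.7 and AZIN1 at 37.1 CPM per kilobase, and ODC1 and SRM were within their spread (SD 2.06 and 3.62). SMOX, at 10.3, and SAT1, at 5.41 CPM per kilobase, came below OAZ2 (13.5), with only PAOX lower than SAT1. OAZ2 and AMD1 have long annotated exons (7671 and 10193 bases), which lowers their level per kilobase.

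Ratios between genes of the same library do not depend on the scaling between libraries. The ratio of SAT1 to its paralog SAT2 was 3.62 ± 0.465 in T24 and 0.330 ± 0.0250 in T24R2 per kilobase of exon, so the more abundant of the pair differed between the lines. SAT2 itself was not called, with 25.2 and 27.0 CPM. The ratio of SAT1 to ODC1 was 1.06 ± 0.199 in T24 and 0.127 ± 0.00887 in T24R2. For SMOX, which oxidizes spermine, against SMS, which makes it from spermidine, the ratio was 0.443 ± 0.0260 in T24 and 0.145 ± 0.0161 in T24R2. The ratio of SRM to SMS was 0.137 ± 0.0123 in T24 and 0.573 ± 0.0351 in T24R2. That of AZIN1 to ODC1 was 0.412 ± 0.0409 in T24 and 0.874 ± 0.0468 in T24R2. In each of these 5 ratios the libraries of the lines were apart, as they were for AMD1 to ODC1 and OAZ2 to OAZ1. Those of OAZ1 to ODC1 overlapped, at 2.20 to 2.56 in T24 and 2.47 to 2.96 in T24R2. The libraries also overlapped for SMOX to PAOX, at 71.8 to 89.8 in T24 and 22.8 to 74.8 in T24R2. Nothing is read from this separation, since the pairs were chosen with the levels known and ratios of other genes were not taken.

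**Figure D2:**
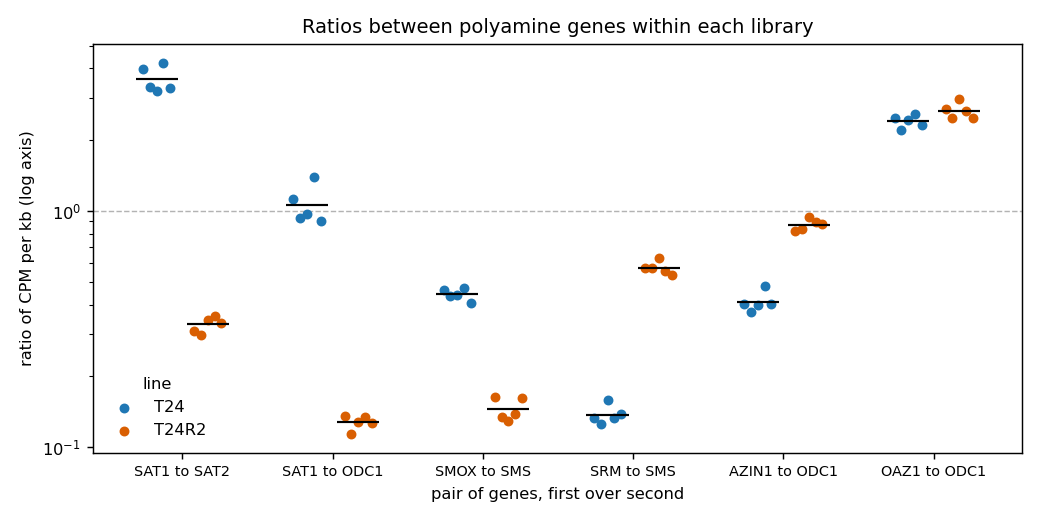
Ratios of CPM per kilobase (log axis) between pairs of polyamine genes within each library of T24 and T24R2, with each point a library and each bar the mean of 5. The ratios of SAT1 to SAT2 and to ODC1 are lower in every T24R2 library, those of SRM to SMS and AZIN1 to ODC1 higher, and those of OAZ1 to ODC1 overlap.

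The wider pathway was examined with a list of 40 genes around these 10, of which 29 had enough counts to be tested. By edgeR's quasi-likelihood test 7 of the 29 were called higher and 8 lower in T24R2, or 51.7%, close to the 51.4% of all tested genes, and their median log2 fold change was 0.10. All adjusted p-values here come from edgeR with Benjamini-Hochberg adjustment over all tested genes. Without scaling the called genes of the list were 10 higher and 5 lower. That choice shifts the typical tested gene upward, with a median of 0.18 in place of 0.01.

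Of the paralogs of the 10 genes, none of 4 was called by edgeR, beside 51.4% of all tested genes. The exception was OAZ3 when no scaling was used (0.58). SAT2, SATL1 and AZIN2 had log2 fold changes of 0.10, -0.02 and 0.13 with adjusted p of 0.253, 0.931 and 0.437 by edgeR, whereas OAZ3 had 0.41 (adjusted p = 0.000277 by edgeR), under the fold change minimum. Their CPM ranges overlapped between the lines. Genes on the opposite strand overlap 18.5% of the exon bases of OAZ3 and 14.2% of those of SATL1. A gene on the same strand shares 9.15% of those of OAZ3.

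Genes that supply the aminopropyl donor and recycle its by-product methylthioadenosine moved in both directions, with 2 of 7 called higher and 3 lower. Of all tested genes, 24.9% were called higher and 26.5% lower. MAT2A, which makes S-adenosylmethionine, rose from 243 ± 6.74 to 409 ± 5.83 CPM, a log2 fold change of 0.75 (adjusted p = 2.04e-19, edgeR), and the regulatory subunit MAT2B had 0.46, under the minimum, but was called without scaling (0.62) and with upper-quartile normalization (0.53). MTAP, which cleaves methylthioadenosine, fell from 75.2 ± 3.64 to 45.1 ± 3.70 CPM, a log2 fold change of -0.74 (adjusted p = 9.5e-14, edgeR). Further along the salvage route, APIP had a log2 fold change of -1.11 and ENOPH1 of -0.58 (-0.42 and not called without scaling), while ADI1, the last dioxygenase step, had 1.00. MRI1 had 0.16 and was not called. Genes on the opposite strand overlap 31.1% of the exon bases of MRI1 and 12.5% of those of MAT2A. In ornithine supply, the mitochondrial arginase ARG2 fell from 60.9 ± 5.13 to 34.3 ± 1.46 CPM (log2 fold change -0.83, adjusted p = 3.91e-14, edgeR), with 39.6% of its exon bases overlapped from the opposite strand. OAT, the other tested gene of ornithine supply, had -0.07 (adjusted p = 0.242, edgeR).

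Of 6 tested transport genes, 3 were called higher and 2 lower, beside 24.9% higher and 26.5% lower of all tested genes. SLC3A2, the heavy chain shared by amino acid transporters including xCT and linked to polyamine export, rose from 255 ± 4.93 to 504 ± 26.2 CPM (log2 fold change 0.98, adjusted p = 1.13e-22, edgeR). SLC18B1, a vesicular polyamine transporter, rose from 5.05 ± 0.719 to 16.1 ± 1.71 CPM (log2 fold change 1.67, adjusted p = 3.51e-14, edgeR). SLC12A8 was low in both lines, at 0.749 and 5.47 CPM, and was called higher. The lysosomal polyamine pump ATP13A2 had a log2 fold change of -0.57 (adjusted p = 1.73e-12, edgeR), and the heparan sulfate proteoglycan GPC1, linked to polyamine uptake, -0.77 (adjusted p = 1.69e-17, edgeR). ATP13A3 had -0.32 and was not called. The ATP13A2 call was lost without scaling (-0.41) and with upper-quartile normalization (-0.50).

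Spermidine is also the substrate for hypusine, a modified lysine of the translation factor EIF5A. EIF5A had 493 ± 41.8 CPM in T24 and 421 ± 8.22 in T24R2, a log2 fold change of -0.23 under the minimum. The hypusination enzymes DHPS and DOHH, at 0.17 and 0.26, were not called either, although 38.8% of the exon bases of DHPS are shared with another gene on its strand. EIF5A2, the scarcer paralog, fell from 25.1 ± 1.98 to 9.54 ± 2.10 CPM (log2 fold change -1.39, adjusted p = 8.41e-14, edgeR). HDAC10, which deacetylates N-acetylated spermidine, had -0.40 (adjusted p = 0.0790, edgeR), and its level is uncertain, since MAPK12 on the same strand shares 55.8% of its exon bases.

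Among factors known to act on these genes, MYC, an activator of ODC1, had 154 ± 6.99 CPM in T24 and 161 ± 5.04 in T24R2 (log2 fold change 0.07, adjusted p = 0.179, edgeR), and its partner MAX had 0.41, under the minimum, and 0.58 without scaling. NFE2L2 (NRF2), which acts with PMF1 on SAT1 transcription, rose from 98.9 ± 2.33 to 280.1 ± 23.3 CPM (283% of T24, adjusted p = 2.25e-26, edgeR). PMF1 had 11.6 and 8.12 CPM and a log2 fold change of -0.51 (adjusted p = 0.000869, edgeR), a call that was lost without scaling (-0.35), with upper-quartile normalization (-0.44) and without T24 replicate 2 (-0.46), T24 replicate 3 (-0.47) or T24R2 replicate 3 (-0.43). Genes on the same strand share 23.3% of the exon bases of PMF1 and 18.6% of those of NFE2L2. From the opposite strand, 16.1% of those of MAX are overlapped. ALOX15, named as an effector of SAT1 in ferroptosis, had at most 1 count in any library.

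**Figure D3:**
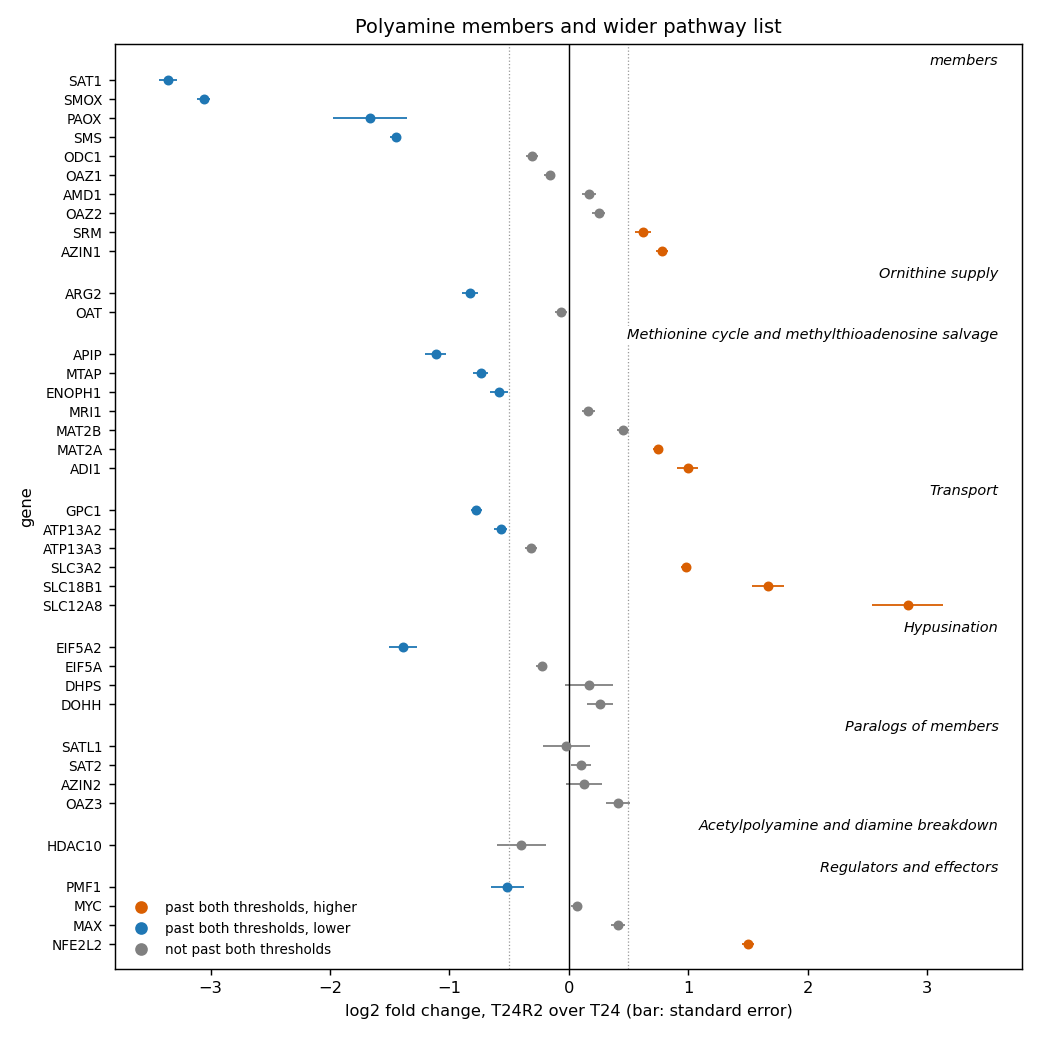
Log2 fold changes of T24R2 over T24 with standard errors from edgeR for the 10 polyamine genes and the tested genes of the wider list that are named in the text, grouped by role, with the dotted lines at the fold change minimum of 0.5. SAT1 and SMOX lie farthest to the left, below -3, while the paralogs lie inside the dotted lines in this TMM-scaled fit.

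SMS and SAT1 lay 1788 kb apart on chromosome X, with genes of both directions around them. The nearest tested gene before SAT1, ACOT9, was called higher at 81.2 and 143 CPM (log2 fold change 0.81, adjusted p = 1.9e-17, edgeR), and the nearest after it, APOO, was called lower, with -0.72 (adjusted p = 6.17e-06, edgeR). On either side of SMS, MBTPS2 and PHEX had -0.22 and -0.19 and were not called. Between SMS and SAT1, a stretch chosen after its values were seen, 2 of 5 tested genes were called higher and 2 lower. One of those lower genes was PRDX4, a peroxiredoxin of the endoplasmic reticulum, at 86.2 CPM in T24 and 28.1 in T24R2 (log2 fold change -1.62). One of the higher genes was DDX53, with 0 counts in T24 and 17.8 CPM in T24R2 (log2 fold change 10.5). Within 2.5 Mb of the SAT1 start, 5 of 14 tested genes other than SAT1 and SMS were higher and 4 lower. Over the 502 tested genes of chromosome X, 151 were higher and 114 lower, with a median log2 fold change of 0.10. Of the 20 nearest neighbours of all 10 genes, 8 were called higher and 4 lower by edgeR. Beside each of these counts stands the share over all tested genes, 24.9% called higher and 26.5% lower.

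**Figure D4:**
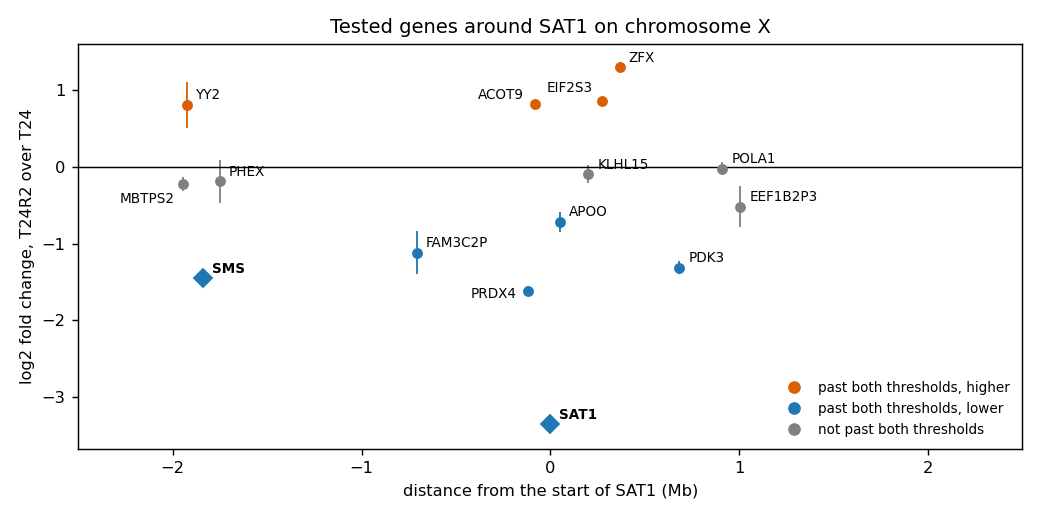
Log2 fold changes of T24R2 over T24 with standard errors for tested genes within 2.5 Mb of the SAT1 start on chromosome X, by distance from that start in Mb. SAT1 and SMS (diamonds) are lower, with called genes of both directions among their neighbours. DDX53, called higher with 0 counts in T24 and 17.8 CPM in T24R2, is not drawn.

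The genes whose pattern was most like that of SAT1 were taken as the 5 with the smallest root mean square difference over the 10 libraries of log2 CPM, each gene relative to its own T24 mean among 6530 genes with at least 32 CPM on average. HMGA2, a chromatin protein, was the closest at 0.14 log2 units, with 195 ± 10.9 CPM in T24 and 18.0 ± 1.30 in T24R2. EFEMP2, ITGB8, FEZ1 and PLAAT3 followed at 0.18 to 0.19 log2 units, with log2 fold changes between -3.26 and -3.20.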

How the data were processed

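RNA-seq libraries of T24 and T24R2 (5 each) were analysed. The authors used STAR 2.7.0 for alignment to hg38 and samtools 1.10 to drop multiply mapped and duplicate reads, and fragments were assigned to GENCODE release 39 genes by featureCounts 2.0.1 with strand option 1. Whether the kit keeps strand is not settled by the sources, so overlapping genes on opposite strands may share reads. The deposited values are raw counts, neither normalized nor pooled. Fragments in exons shared on 1 strand are left out by this counting, which lowers genes such as PAOX. Other assays of the study were not analysed here.

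Counts were compared in R 4.3.3 with edgeR 4.0.16 (filterByExpr, TMM, glmQLFit, glmQLFTest, Benjamini-Hochberg adjustment). CPM are given as mean ± SD, and a gene at 3 counts or fewer is at the floor, which covers counting error only. Members, gene lists and tests were chosen with earlier results of these data known. Named genes are the 10 members, the tested genes of the wider list (counted in full, with some members not reported here by name), the neighbours, and the 5 genes most like SAT1; PRDX4, DDX53 and JSRP1 were named after their values were seen. Symbols matched 61369 of 61533 genes. Libraries of 1 line differed by more than sampling noise, at 2.01 to 7.09 times its chi-square expectation. The fits were tested on simulated counts with 200 of 16181 genes changed, at a log2 fold change of 1 in either direction. edgeR and DESeq2 each found all 200, and edgeR made 7 false calls. With so few genes changed, against 51.4% called in the data, the simulation cannot test the choice of scaling. Alternatives were other scalings, DESeq2 1.42.0, other count filters, a replicate block, removal of opposite-strand counts and leaving out each library. Overlaps used bedtools 2.31.1, and plots matplotlib 3.10.9 in Python 3.11.15.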

Additional observations from a re-analysis of the deposited data

Results flagged for a closer look

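A gap between 1 replicate and the other 4 of its line, relative to their range, was found in 3 of 78 sets of 5 libraries checked, where chance alone gives about 3.9. PAOX in T24R2 replicate 3 had 0.288 CPM, from 3 counts, against 0.787 to 0.980 in the others, and without that library its log2 fold change was the least negative of those from leaving out a library, at -1.46. ENOPH1 in T24R2 replicate 4 had 24.9 CPM, against 27.9 to 28.7 in the others. MYC in T24R2 replicate 3 had 170.2 CPM, against 157 to 161 in the others.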

How the results depend on the processing

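Without scaling, the log2 fold change of SAT1 was -3.19 and the wider list had 5 genes called lower, since the median of all genes moved. Those of SMOX, PAOX and SMS were then -2.89, -1.50 and -1.29. SRM, AZIN1 and OAZ2 moved up to 0.78, 0.94 and 0.42. The same 6 members passed both thresholds. With a mean of at least 100 counts, 4991 genes were called in all and 7 neighbours of members, because fewer genes were tested, and PAOX was left out. With each library left out in turn, SAT1 ranged from -3.40 to -3.28, the genes called from 8398 to 8466, the wider list from 7 to 9 lower and 7 to 7 higher, and the neighbours called from 11 to 13. With no count filter 10919 genes were called, and with DESeq2 8247 without and 8188 with normal shrinkage. With the replicate number as a block 8240 genes were called, SAT1 was at -3.35, and 7 higher and 8 lower genes of the wider list and 12 neighbours were called. The labels do not say that replicate numbers pair the libraries, and the correlations of same-numbered deviations lay between -0.0210 and 0.0155. These correlations show no shared replicate effect, but cannot tell whether same-numbered libraries were prepared together. At this depth PAOX, with 3 to 26 counts per library, is the least precise of the members.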

Other observations

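Among the 11 genes of the wider list with too few counts to be tested, AGMAT, an agmatinase, had 9 to 21 counts in the T24 libraries and 2 to 6 in those of T24R2. AOC1, the diamine oxidase, and MYCN had 0 counts in every library, which allows up to 3 counts per library. The liver arginase ARG1 and the liver enzyme MAT1A had at most 4 counts in any library. The pseudogenes of members, found by symbol, held at most 5 counts in any library (AMD1P3).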
